A study of Rattus norvegicus with 8 samples.

Results

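A set of 42 genes that drive or mark the cell division cycle were followed in livers of rats given lipopolysaccharide (LPS), the endotoxin of Gram-negative bacteria. A probe was taken as a member when its gene symbol, current or older, was on the list of 42, which covers G1 cyclins and kinases, origin licensing, the replication fork, nucleotide supply and mitosis. Of the 42 genes, 40 had a probe, with 49 probes among the 23615 on the array and among 14332 distinct gene symbols. Cdk1 was listed under its older symbol Cdc2, and Prim1 was named from its transcript accession. Mcm3 and Cdc25b were not analysed here.

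Livers of 8 Sprague Dawley rats were compared, 4 from rats given LPS at 3 mg/kg into the peritoneum and 4 from controls, all taken at 24 h per the labels. The labels give 0.9% sodium chloride as the vehicle and elsewhere call the controls non-treated. Age is listed as not known, and no genetic alteration is named. The column headers of the table give other doses and times, which read 100 mkd (Mid) over LPS array 1, 1000 mkd (High) over the other LPS arrays, 0 mkd over the controls, and day 2 throughout. For that reason no dose or time is attached to the results. Each liver RNA, labelled with Cy5, was hybridised together with a pool of control liver RNA labelled with Cy3. The value used was the log2 ratio of liver over pool, so that 0 means the level of the pool. Array numbers follow the order of the table and were not set by the replicate numbers of the labels.

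The 8 arrays gave 23408 to 23529 values each, with a median liver intensity of 0.12 to 0.17 arbitrary units and 31.2% to 44.8% of probes under 0.1 units. Intensities carry 2 decimals, apart from the smallest values, which are given more finely. The channels were therefore equal on 19.1% to 38.4% of probes, and ratios of dim probes move in coarse steps. A member was called dim when its mean liver intensity was under 0.1 units in both groups. This held for 14 of the 40 members. The arrays were divided into 2 sets by clustering of the pool channel, with the number of sets fixed at 2 beforehand. The first held all 4 LPS arrays and control array 1, the second control arrays 2 to 4. Pool intensities correlated at 0.985 to 0.994 within a set and 0.978 to 0.988 between sets, across probes, which are not independent. These ranges overlap, so the sets are not sharply separated. Of 6 hepatocyte markers tested of 12 listed, none was under 0.05 units on all arrays, and their summed intensity was 44.5 to 49.2 units in LPS livers and 57.3 to 80.5 units in control livers.

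Most hepatocytes of an adult liver rest outside the cell cycle. D-type cyclins with Cdk4, and cyclin E with Cdk2, carry a cell through G1 and release E2F transcription factors, which turn on genes of DNA replication. Licensing factors load the Mcm helicase on origins, polymerases and flap and nick-sealing enzymes copy the DNA, and cyclin A and B with Cdk1 then start mitosis. Genes of mitosis are commonly held silent in resting cells through a CHR element, often beside CCAAT boxes. In RNA from whole liver, a change in the number of cells of a type and a change in RNA per cell cannot be told apart.

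Of the 40 measured members, 17 were higher in LPS livers and 2 were lower at an adjusted p under 0.05 in limma, a linear model fitted over all 21052 features. The 17 that rose are 42.5% of the members, against a background of 12.2% of all features, and the 2 that fell are 5.0%, against 12.4%. In either direction 24.7% of features were called. The mean difference was above 0 for 34 members and below 0 for 6. The median difference over the members was 0.38 on the log2 scale, against -0.04 over all features. The 4 LPS values lay above all 4 control values for 18 members, or 45% against 13.1% of features, and below them for 2, against 14.7% of features. For 11 of the higher members and 1 of the lower ones the groups stayed apart even at the limits of the rounding. That count was not made over all features, so it has no background to stand against.

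The number of calls depended on scaling and on the array sets. Quantile normalization of the ratios left 6 that rose, Fen1, Tyms, Cdk4, Aurka, Top2a and Ube2c, against 3.92% of features, and a term for the array sets left 5, Fen1, Tyms, Cdk4, Top2a and Ube2c, against 4.62% of features. With that term, control array 1 is the only control set directly against the LPS arrays. Median centring over probes with unequal channels gave 22 that rose, against 18.2% of features, and turned 71.9% of all calls to the higher side, against 49.6% without it, as the median of all features moved to 0.0669 from -0.043. Within the set that holds both groups, all 4 LPS arrays lay beyond control array 1, in the called direction, for each of the 19 called members. For 18 of the 19 the LPS values already lay beyond all 4 controls, so this is no separate support for the calls.

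**Figure D1:**
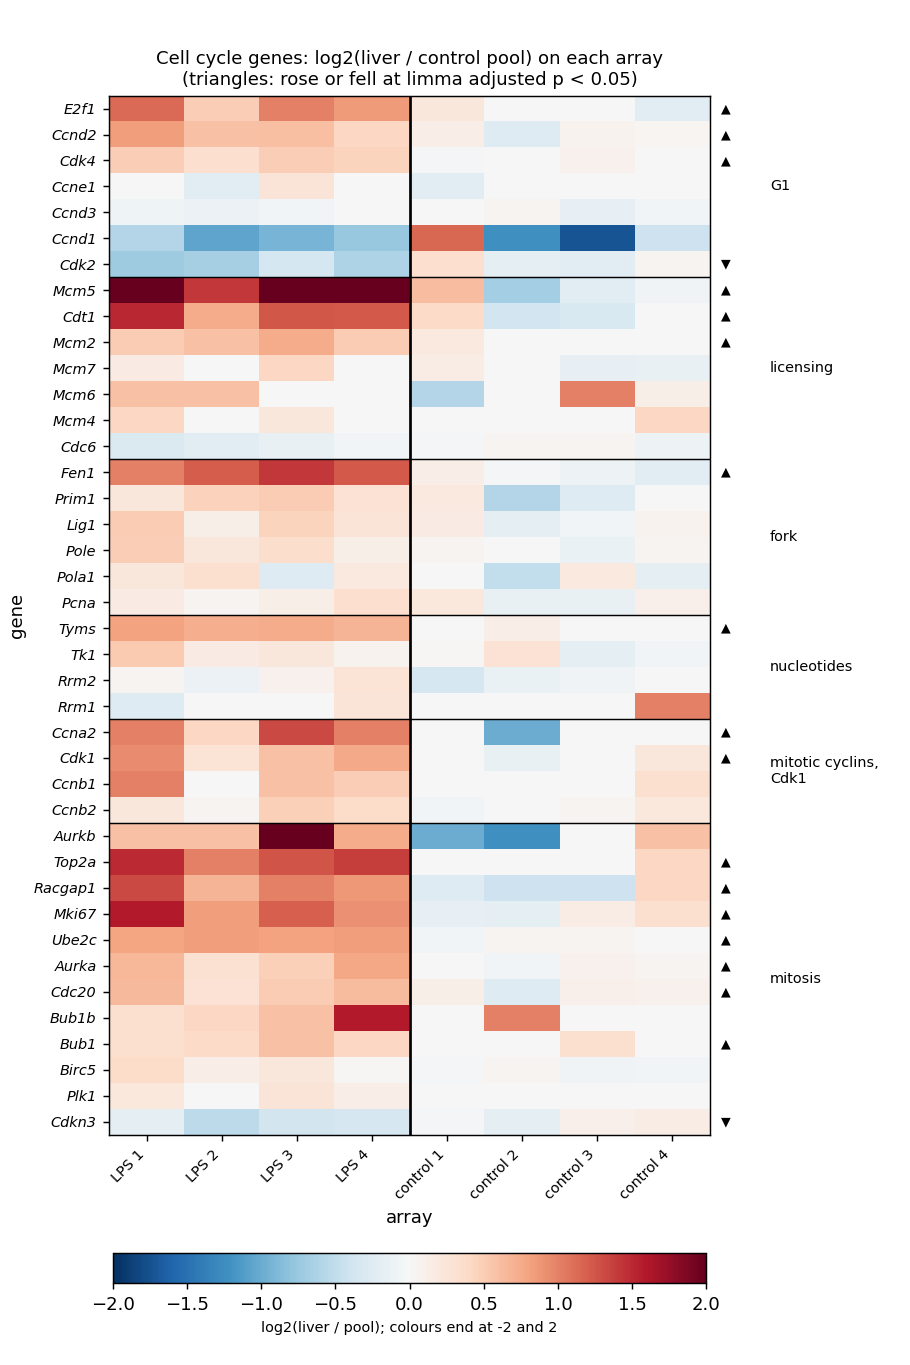
Log2 ratio of liver over control pool for the 40 members (vertical axis, grouped by role) on each array (horizontal axis, LPS left and control right), with triangles marking genes that rose or fell. The LPS columns are red for the 17 genes that rose, while Cdk2 and Cdkn3 are blue, and Ccnd1 differs widely among the control columns.

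By phase, 3 of 7 G1 members (42.9%) rose and 1 (14.3%) fell, 5 of 17 S phase members (29.4%) rose, and 9 of 16 M phase members (56.2%) rose and 1 (6.25%) fell, against 12.2% and 12.4% of all features. The share of G1 members that fell is near that of all features. The median difference was 0.07 for G1, 0.24 for S phase and 0.52 for M phase members. The mean was higher in LPS livers for 4 of 7 G1, 15 of 17 S phase and 15 of 16 M phase members. The difference between phases was not tested. On LPS arrays 1 to 4 the median M phase ratio was 0.66, 0.34, 0.58 and 0.75, and on control arrays 1 to 4 it was 0.00, -0.03, 0.01 and 0.12. The median S phase ratio was 0.49, 0.22, 0.35 and 0.26 on the LPS arrays, and 0.06, 0.00, -0.07 and 0.00 on the control arrays. The G1 medians were 0.00, -0.12, 0.26 and 0.00 on the LPS arrays, against 0.13, 0.00, 0.00 and 0.00 on the control arrays, so only the M and S phase medians stood apart on all arrays.

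Dim members were found in each phase. Of the S phase members 7 of 17 were dim and 1 of these rose, of the M phase members 5 of 16 were dim and 2 rose, and of the G1 members 2 of 7 were dim and 1 rose. Among members that were not dim, 4 of 10 rose in S phase, 7 of 11 rose and 1 fell in M phase, and 2 of 5 rose and 1 fell in G1. In all, 13 of 26 members that were not dim rose and 2 fell, and 4 of 14 dim members rose. The shares of all dim and of all other features that rose or fell in the same fit were not counted. Calls were more frequent among brighter features in general. In a fit limited to features whose liver intensity averaged 0.1 units or more in either group, 16 of 26 members rose and 2 fell, against 19.5% and 19.4% of features. The dim class and this filter use the brighter group, so a rise can itself carry a gene past 0.1 units. Top2a, for instance, had 0.118 units in LPS livers and 0.0525 units in control livers. These counts therefore do not show that rises go with brightness. With the same limit on pool intensity, 54.5% of tested members rose, against 18.3% of features.

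**Figure D2:**
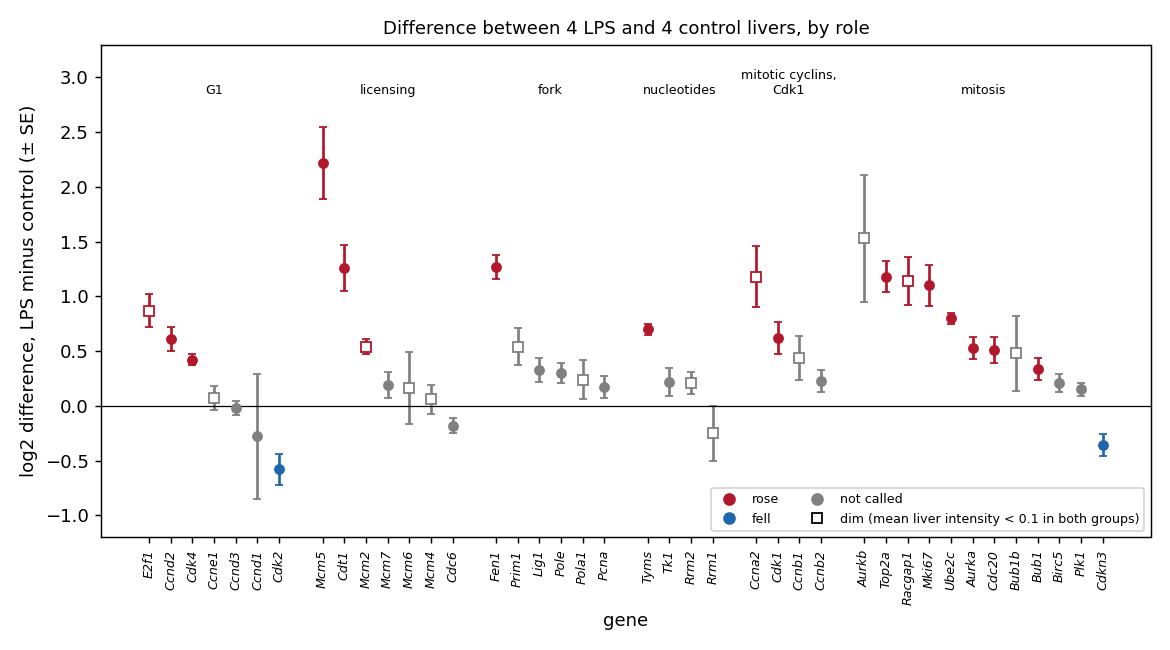
Log2 difference, LPS minus control, with its standard error (vertical axis) for each member (horizontal axis), grouped by role, from 4 livers a group. Red genes rose, blue genes fell, grey genes were not called, and open squares are dim members. Mcm5 stands highest at 2.22, and Aurkb, Bub1b and Mcm6, with standard errors of 0.33 to 0.58, are dim.

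The promoters of the members were searched, since E2F sites and CHR elements are the known controls of replication and mitosis genes. RefSeq promoters of the GRCr8 assembly, from 250 bases before to 50 bases after the gene's start, were matched for 30 of the 40 members. The E2F motif was searched as TTCCCGC or TTCGCGC or TTGCCGC or TTGGCGC, the CHR motif as TTTGAA, and the CCAAT motif as CCAAT, on both strands. E2F matches on opposite strands can overlap, and an E2F match can share letters with a CCAAT match. An E2F motif stood in 12 of 14 S phase promoters (85.7%), 3 of 12 M phase promoters (25%) and 1 of 4 G1 promoters, against 10% of 27457 promoters. A CHR motif stood in 9 of 12 M phase promoters (75.0%) and 1 of 14 S phase promoters (7.14%), against 18.1% of all. CHR and CCAAT motifs stood together in 8 of 12 M phase promoters (66.7%), against 7.25% of all. Members that rose and members that were not called held E2F motifs in 58.3% of 12 and 50% of 16 promoters, CHR motifs in 41.7% and 25%, and CCAAT motifs in 41.7% and 75%. Over all promoters a CCAAT motif stood in 37.7%, near the share of members that rose. A match is a description of letters and not of a factor's binding.

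**Figure D3:**
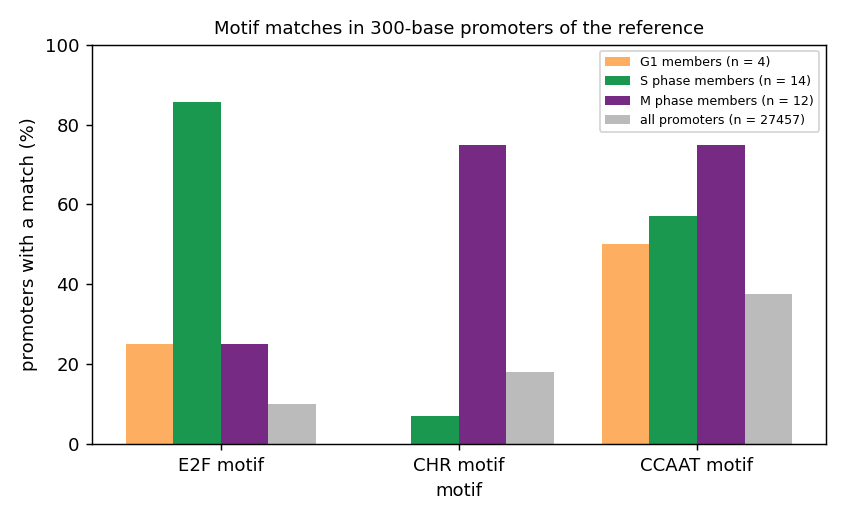
Share of promoters with at least 1 match (vertical axis, percent) for the E2F, CHR and CCAAT motifs (horizontal axis) in G1, S phase and M phase members and in all 27457 promoters. E2F matches are most frequent in S phase promoters at 85.7%, and CHR matches in M phase promoters at 75.0%.

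Among the G1 genes, Cdk4, Ccnd2 and E2f1 rose and Cdk2 fell. Cdk4, the kinase partner of the D-type cyclins, read 0.49, 0.33, 0.49 and 0.44 on LPS arrays 1 to 4, against -0.03, 0.00, 0.08 and 0.00 on control arrays 1 to 4. All LPS values were higher than all control values, with a difference of 0.42 ± 0.05 (SE, 4 livers a group here and below; 1.34-fold, limma adjusted p = 0.00157). Ccnd2, cyclin D2, read 0.83, 0.58, 0.60 and 0.42 in LPS livers, against 0.13, -0.26, 0.07 and 0.04 in control livers, a difference of 0.61 ± 0.11 (SE; adjusted p = 0.00721) with no overlap. E2f1, the transcription factor that the D-type cyclin kinases release from the retinoblastoma protein, read 1.14, 0.49, 1.00 and 0.85 in LPS livers, against 0.22, 0.00, 0.00 and -0.22 in control livers. The groups did not overlap and differed by 0.87 ± 0.15 (SE; adjusted p = 0.00595). This probe is dim, at 0.0875 units in LPS livers and 0.0625 units in control livers, and its difference was 0.10 in the liver channel alone.

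Cdk2, the kinase that cyclin E and cyclin A activate, read -0.71, -0.66, -0.35 and -0.62 on the LPS arrays, against 0.34, -0.19, -0.23 and 0.06 on the control arrays. Every LPS value lay below every control value, and the difference of -0.58 ± 0.14 (SE; 1.5-fold lower, adjusted p = 0.0222) held within rounding. The call was lost without control array 4 or without LPS array 1, 2 or 4. Its promoter, on the minus strand at chr7:1721829-1722128 of GRCr8, is shown because it holds 2 E2F matches, at positions -82 and -32 from the start, in a gene that fell. The capitals mark E2F and CCAAT matches.
Cdk2: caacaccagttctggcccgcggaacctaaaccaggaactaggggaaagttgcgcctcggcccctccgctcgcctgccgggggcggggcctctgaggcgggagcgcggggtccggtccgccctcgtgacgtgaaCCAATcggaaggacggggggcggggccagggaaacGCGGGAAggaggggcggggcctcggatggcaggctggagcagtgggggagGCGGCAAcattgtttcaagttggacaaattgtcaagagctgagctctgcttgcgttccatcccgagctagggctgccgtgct

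The other cyclins of G1 gave no call. Ccnd1, cyclin D1, read -0.59, -1.05, -0.93 and -0.76 in LPS livers, against 1.15, -1.22, -1.73 and -0.42 in control livers. The control values spanned a wider range than the LPS values and enclosed them, and the difference was -0.28 ± 0.57 (SE; adjusted p = 0.754). With a term for the array sets, which sets the LPS arrays against control array 1, where the ratio was 1.15, the difference was -1.99 (adjusted p = 0.0431). Ccnd3, cyclin D3, differed by -0.02 ± 0.06 (SE), and Ccne1, cyclin E1, a dim member, by 0.07 ± 0.11 (SE).

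Among the licensing factors, Mcm5, Cdt1 and Mcm2 rose, and the other 4 measured were not called. Mcm5, a subunit of the helicase that opens origins, read 2.64, 1.42, 2.17 and 2.28 in LPS livers, against 0.62, -0.68, -0.22 and -0.07 in control livers. This was the largest difference of the 40 members at 2.22 ± 0.33 (SE; 4.64-fold, adjusted p = 0.00302), and the groups stayed apart within rounding. Its liver intensity was 0.81, 0.40, 0.63 and 0.68 units on the LPS arrays, against 0.23, 0.10, 0.12 and 0.19 units on the control arrays. Cdt1, which loads the helicase together with Cdc6, read 1.5, 0.74, 1.24 and 1.23 in LPS livers, against 0.38, -0.39, -0.30 and 0.00 in control livers. The groups did not overlap, and the difference was 1.26 ± 0.21 (SE; 2.39-fold, adjusted p = 0.00507). Mcm2 read 0.51, 0.58, 0.74 and 0.51 in LPS livers, against 0.19, 0.00, 0.00 and 0.00 in control livers, a difference of 0.54 ± 0.07 (SE; adjusted p = 0.00201). It is dim, and its groups are not apart at the limits of rounding.

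The helicase subunits did not move as a block. Mcm4, Mcm6 and Mcm7 differed by 0.06, 0.16 and 0.19, with standard errors of 0.13, 0.33 and 0.12, and of these Mcm4 and Mcm6 are dim. Cdc6, the partner of Cdt1, differed by -0.18 ± 0.07 (SE; adjusted p = 0.0973). The promoter of Mcm5 is shown because it holds 3 E2F matches and belongs to the member with the largest difference. It lies on the plus strand at chr19:13488563-13488862 of GRCr8, with E2F matches at positions -212, -209 and -7, the first 2 overlapping on opposite strands, and CCAAT matches in capitals too.
Mcm5: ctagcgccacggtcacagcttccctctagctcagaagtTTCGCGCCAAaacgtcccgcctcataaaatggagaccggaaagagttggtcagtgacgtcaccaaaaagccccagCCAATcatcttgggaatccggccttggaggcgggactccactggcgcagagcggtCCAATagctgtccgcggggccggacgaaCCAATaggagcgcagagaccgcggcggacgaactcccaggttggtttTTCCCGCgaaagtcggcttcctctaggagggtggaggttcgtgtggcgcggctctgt

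At the replication fork, Fen1 rose and the other 5 members were not called. Fen1, the nuclease that removes the flaps of Okazaki fragments, read 1.00, 1.21, 1.42 and 1.23 in LPS livers, against 0.13, -0.03, -0.10 and -0.21 in control livers. All LPS values stood clear of the controls, at a difference of 1.27 ± 0.11 (SE; 2.41-fold, adjusted p = 0.000332). Fen1 is the only member called under every alternative that was run, with differences from 0.98 to 1.38 and adjusted p from 6.43e-05 to 0.0135. Its promoter, on the minus strand at chr1:216274347-216274646 of GRCr8, is shown for that reason and holds 1 E2F match, in capitals, at position -34.
Fen1: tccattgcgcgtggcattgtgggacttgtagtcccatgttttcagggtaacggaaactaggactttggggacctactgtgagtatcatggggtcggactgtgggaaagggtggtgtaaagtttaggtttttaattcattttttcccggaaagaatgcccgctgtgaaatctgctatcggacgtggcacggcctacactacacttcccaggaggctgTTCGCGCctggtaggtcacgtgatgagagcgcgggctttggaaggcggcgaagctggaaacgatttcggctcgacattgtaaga

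Prim1, the primase subunit that lays down RNA primers, read 0.22, 0.46, 0.51 and 0.29 in LPS livers, against 0.19, -0.58, -0.26 and 0.00 in control livers. The groups did not overlap, but the difference of 0.54 ± 0.17 (SE) had an adjusted p of 0.0528, and the member is dim. Pole, the catalytic subunit of the leading-strand polymerase, read 0.49, 0.22, 0.35 and 0.11 in LPS livers, against 0.06, 0.00, -0.13 and 0.06 in control livers, with a difference of 0.30 ± 0.09 (SE; adjusted p = 0.0517). Lig1, the ligase that seals Okazaki fragments, differed by 0.33 ± 0.11 (SE; adjusted p = 0.07), with overlapping groups. Pola1, of the priming polymerase, differed by 0.24 ± 0.18 (SE). Pcna, the sliding clamp, read 0.16, 0.06, 0.11 and 0.34 in LPS livers, against 0.21, -0.15, -0.15 and 0.10 in control livers. Its intensity was 5.37 to 6.44 units in LPS livers and 5.41 to 6.19 units in control livers, far from the dim range, and the difference was 0.17 ± 0.10 (SE; adjusted p = 0.278).

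Of the genes of nucleotide supply, Tyms rose. Tyms, thymidylate synthase, read 0.81, 0.72, 0.74 and 0.68 in LPS livers, against 0.00, 0.13, 0.00 and 0.00 in control livers. The groups were apart within rounding, at a difference of 0.70 ± 0.05 (SE; 1.63-fold, adjusted p = 0.000213). Tk1, thymidine kinase, differed by 0.22 ± 0.13 (SE), and Rrm1, the large subunit of ribonucleotide reductase, by -0.25 ± 0.25 (SE). Neither was called, and Rrm1 is dim. Rrm2, the small subunit of the same enzyme, had 3 dim probes that disagreed, and its average differed by 0.21 ± 0.10 (SE; adjusted p = 0.167). In the fit of each probe on its own, Rrm2 probe 1 differed by -0.03, probe 2 fell by 0.65 (adjusted p = 0.0145) and probe 3 rose by 1.32 (adjusted p = 0.00848).

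Of the mitotic cyclins and Cdk1, Ccna2 and Cdk1 rose. Ccna2, cyclin A2, read 1.00, 0.42, 1.32 and 1.00 in LPS livers, against 0.00, -1, 0.00 and 0.00 in control livers. The groups did not overlap and differed by 1.18 ± 0.28 (SE; 2.27-fold, adjusted p = 0.0201). These ratios rest on liver intensities of 0.08, 0.04, 0.05 and 0.06 units in LPS livers, against 0.03, 0.01, 0.02 and 0.02 units in control livers, near the rounding step. The call was lost without LPS array 1, 3 or 4. Cdk1, the kinase that drives entry into mitosis, read 0.94, 0.28, 0.58 and 0.76 in LPS livers, against 0.00, -0.15, 0.00 and 0.22 in control livers. Its groups lay side by side without overlap, at a difference of 0.62 ± 0.15 (SE; 1.54-fold, adjusted p = 0.0196), and the call was lost without control array 1 or 2 or without LPS array 4. The B-type cyclins Ccnb1 and Ccnb2, which activate Cdk1, differed by 0.44 ± 0.20 and 0.23 ± 0.10 (SE), with adjusted p of 0.155 and 0.145. The value of Ccnb2 averages a dim probe at -0.13 with a brighter one at 0.59, and with either filter on intensity only the second remained, at 0.59 (adjusted p = 0.0495 on liver and 0.0484 on pool intensity).

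Of the 12 genes of mitosis, 7 rose and Cdkn3 fell. Top2a, the topoisomerase that untangles sister chromatids, read 1.49, 1.00, 1.26 and 1.38 in LPS livers, against 0.00, 0.00, 0.00 and 0.42 in control livers. Mki67, the widely used marker of dividing cells, read 1.58, 0.83, 1.19 and 0.92 in LPS livers, against -0.17, -0.19, 0.15 and 0.32 in control livers. Neither pair of groups overlapped, and the differences were 1.18 ± 0.14 for Top2a and 1.1 ± 0.19 for Mki67 (SE; adjusted p = 0.00103 and 0.00557). Racgap1, which acts in cytokinesis, read 1.32, 0.68, 1.00 and 0.87 in LPS livers, against -0.26, -0.42, -0.42 and 0.42 in control livers. It is dim, and the groups did not overlap, at a difference of 1.14 ± 0.22 (SE; adjusted p = 0.0081).

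Aurka, a kinase of spindle poles, read 0.66, 0.30, 0.48 and 0.77 in LPS livers, against 0.00, -0.05, 0.08 and 0.05 in control livers. Cdc20, an activator of the anaphase-promoting complex, read 0.65, 0.29, 0.51 and 0.64 in LPS livers, against 0.12, -0.26, 0.10 and 0.09 in control livers. The groups did not overlap in either case, with differences of 0.53 ± 0.10 for Aurka and 0.51 ± 0.12 for Cdc20 (SE; adjusted p = 0.00822 and 0.0173). The call of Cdc20 was lost without LPS array 4. Bub1, a kinase of the spindle checkpoint, read 0.32, 0.38, 0.58 and 0.42 in LPS livers, against 0.00, 0.00, 0.32 and 0.00 in control livers. LPS array 1 and control array 3 met at 0.32, and the difference of 0.34 ± 0.10 (SE; adjusted p = 0.0346) was no longer called without any of control arrays 1, 2 and 4 or LPS arrays 2, 3 and 4, each left out singly.

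Ube2c, the ubiquitin-conjugating enzyme that works with the anaphase-promoting complex, had the lowest adjusted p of the 40 members, and it rests on 1 of 2 probes. The average of its probes read 0.79, 0.84, 0.80 and 0.83 in LPS livers, against -0.06, 0.06, 0.06 and 0.00 in control livers (difference 0.80 ± 0.05, SE; adjusted p = 0.000102). Probe 2 read 1.68, 1.58, 1.74 and 1.66 in LPS livers and 0.00 in each control liver. Probe 1 read -0.09, 0.10, -0.14 and 0.00 in LPS livers, against -0.12, 0.12, 0.13 and 0.00 in control livers. The probes disagree, with differences of 1.67 and -0.06, and only probe 1 reached a mean pool intensity of 0.1 units, at 0.125 units, against 0.0537 units for probe 2. The 2 probes of Aurka differed by 0.42 (adjusted p = 0.062) and 0.65 (adjusted p = 0.00126). Differences of opposite sign, none of them called, were also found between the probes of Ccnb2 (-0.13 and 0.59), Tk1 (-0.03 and 0.47) and Ccnd3 (-0.16 and 0.11).

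**Figure D4:**
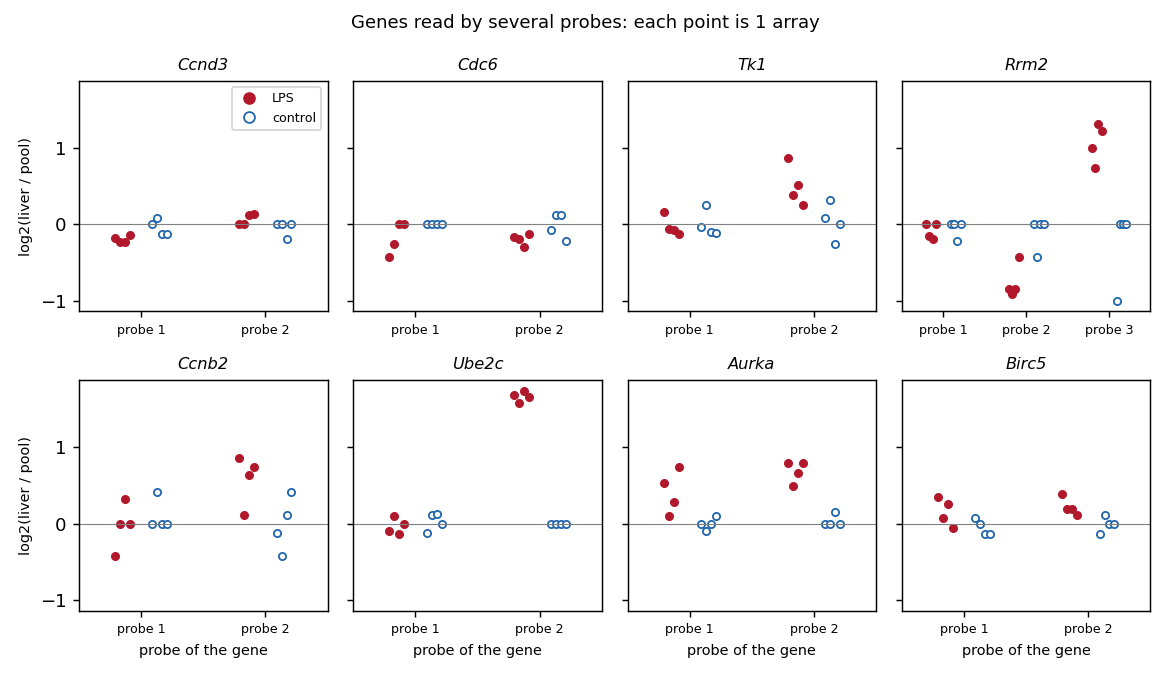
Log2 ratio of liver over pool (vertical axis) for each probe (horizontal axis) of the 8 members read by several probes, 1 point per array, LPS filled red and left, control open blue and right. The probes of Ube2c and Rrm2 part ways, with Ube2c probe 2 between 1.58 and 1.74 on the LPS arrays and probe 1 near 0, those of Ccnb2, Tk1 and Ccnd3 have differences of opposite sign, and those of Aurka, of Birc5 and of Cdc6 have differences of the same sign, most of them not called.

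Cdkn3, a phosphatase that acts on cyclin-dependent kinases, read -0.19, -0.53, -0.36 and -0.33 in LPS livers, against -0.03, -0.18, 0.10 and 0.15 in control livers. The LPS value nearest to the controls was that of array 1, just below control array 2, and the difference was -0.36 ± 0.10 (SE; adjusted p = 0.0339). The call was lost without any of control arrays 1, 3 and 4 or LPS arrays 2, 3 and 4, each left out singly. Aurkb, the kinase of the chromosomal passenger complex, had the largest difference of the mitosis genes, at 1.53 ± 0.58 (SE; adjusted p = 0.0961), and was not called. It read 0.58, 0.58, 2.60 and 0.74 in LPS livers, against -1, -1.22, 0.01 and 0.58 in control livers, at no more than 0.06 units of liver intensity on any array. LPS array 3 stood alone, and LPS arrays 1 and 2 met control array 4 at 0.58. The pool intensity of Aurkb was 0.04, 0.02, 0.00822 and 0.03 units on LPS arrays 1 to 4. Bub1b, Birc5 and Plk1, of the spindle checkpoint, the passenger complex and the mitotic kinases, differed by 0.48 ± 0.34, 0.21 ± 0.08 and 0.15 ± 0.06 (SE), none of them called.

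The promoters of Top2a and Cdc20 are shown because both genes rose and both promoters hold a CHR motif with CCAAT motifs, and neither holds an E2F match. The same make-up was found for Cdkn3, which fell, and for Plk1 and Birc5, which were not called, so it does not mark the genes that rose. That of Top2a lies on the minus strand at chr10:84473044-84473343 of GRCr8, with its CHR match at position -22 and 4 CCAAT matches, all read on the opposite strand. That of Cdc20 lies on the minus strand at chr5:137255750-137256049, with its CHR match at position -51 and CCAAT matches at -86 and -41. Capitals mark the matches.
Top2a: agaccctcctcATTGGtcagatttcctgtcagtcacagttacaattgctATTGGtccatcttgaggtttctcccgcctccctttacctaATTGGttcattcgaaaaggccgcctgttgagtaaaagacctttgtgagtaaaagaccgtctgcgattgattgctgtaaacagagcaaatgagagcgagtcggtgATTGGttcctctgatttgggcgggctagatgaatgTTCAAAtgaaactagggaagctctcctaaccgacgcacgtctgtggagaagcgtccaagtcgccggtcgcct
Cdc20: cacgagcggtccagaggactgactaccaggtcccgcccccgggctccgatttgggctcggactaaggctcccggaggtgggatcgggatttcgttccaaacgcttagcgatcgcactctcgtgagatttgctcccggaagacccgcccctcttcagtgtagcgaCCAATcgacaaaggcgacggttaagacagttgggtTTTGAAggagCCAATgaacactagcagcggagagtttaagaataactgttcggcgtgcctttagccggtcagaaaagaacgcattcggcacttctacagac

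Larger changes were rarer. At least 2-fold rises were called for 7 members, Mcm5, Fen1, Cdt1, Ccna2, Top2a, Racgap1 and Mki67, against 2.24% of features. In a test against a 1.5-fold change, 3 members passed, Mcm5, Fen1 and Ube2c, against 1.2% of features. In the authors' deposited table, which gives a p-value of liver against pool for each probe of each array, 13 of 49 member probes (26.5%) had a p under 0.01 on at least 3 LPS arrays, against 12.4% of all probes, and 4 had one on at least 1 control array. Those 4 include the Ccnd1 probe, which passed on 3 control arrays in the authors' deposited table.

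The LPS livers differed among themselves in a shared way. Of the 17 genes that rose, 10 (58.8%) had their highest LPS value on array 1, against 26.2% of the other 2430 features that rose and had a single highest array. Of the 16 with a single lowest LPS array, 11 (68.8%) were lowest on array 2, against 28.6% of other features that rose. Array 1 is the array whose header gives 100 mkd. Without LPS array 1, 16 members rose, against 11.1% of features, and without LPS array 2, 19 rose, against 10.4% of features. The summed markers of T and NK cells were likewise highest on array 1 and lowest on array 2 among the LPS arrays. Not every gene followed the sum, as the ratio was lowest on array 3 for Klrk1 and on array 4 for Cd4 and Cd3g. The summed intensity over the 14 genes was 4.65, 3.35, 3.76 and 3.92 units on LPS arrays 1 to 4, against 2.61, 2.06, 2.02 and 2.22 units on control arrays 1 to 4. Of the 14, 6 rose (42.9%) and 1 fell (7.14%), against 12.2% and 12.4% of all features. No gene was under 0.05 units on all arrays. Summed neutrophil, Kupffer cell and endothelial markers were also highest on LPS array 1, at 36.9, 54.9 and 41.3 units. The neutrophil sum was lowest on array 4, at 18.2 units, and the other 2 on array 3, at 36.3 and 31.5 units. Summed cholangiocyte markers were also lowest on array 2, at 1.21 units, but highest on array 3, at 1.96 units. The part of any of these cells in the result was not tested.

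**Figure D5:**
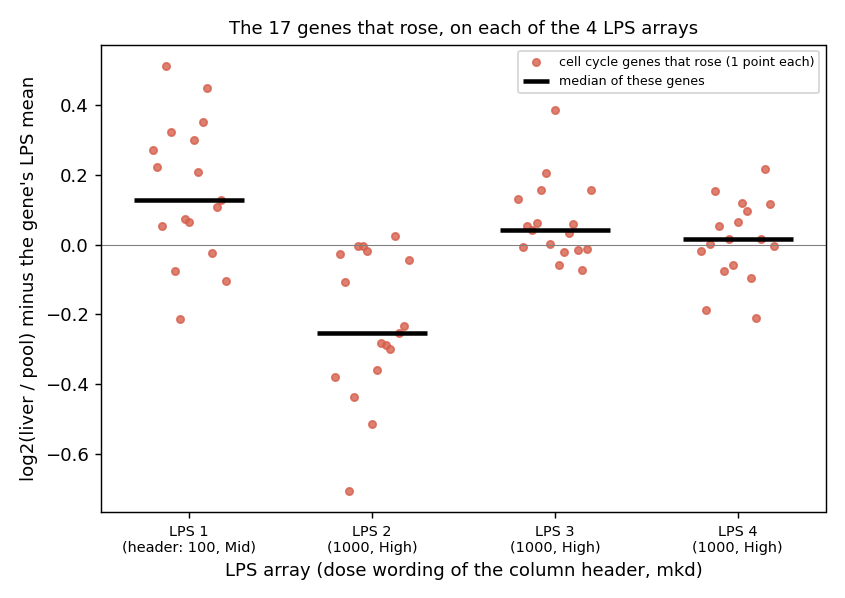
Log2 ratio of each of the 17 genes that rose, less that gene's own mean over the LPS arrays (vertical axis), on the 4 LPS arrays (horizontal axis, with the dose wording of the column headers), 1 point per gene and a bar at the median. Array 1 holds the highest value of 10 genes and array 2 the lowest of 11.

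Markers of other cells moved as well, beside the same 17 genes. Their counts stand against 12.2% of all features risen and 12.4% fallen. Summed neutrophil markers reached 18.2 to 36.9 units in LPS livers, against 2.41 to 3.05 units in control livers, with 6 of 14 risen and 1 fallen. Most of that sum was Lcn2 (mean 12.5 units in LPS livers, 0.13 in control livers), S100a9 (9.35 and 0.235 units) and Fcgr3a (4.05 and 1.8 units). The sum therefore follows these few genes and is not a measure of neutrophil content. The ratio of Lcn2 was 4.62, 4.23, 4.35 and 0.58 on LPS arrays 1 to 4, and the sum was lowest on array 4. The granule genes Mpo, Elane, Ngp and Ltf were not called, nor were Cxcr2, Itgam and Camp, the last under 0.05 units on all arrays, and Prtn3 fell by 0.71. B and plasma cell markers summed to 0.89 to 1.2 units in LPS livers, against 0.46 to 0.75 units in control livers. Of these 1 of 7 rose (14.3%), near the share of all features. Cholangiocyte markers summed to 1.21 to 1.96 units in LPS livers, against 0.85 to 1.18 units in control livers, with 1 of 5 risen (20%). Kupffer cell and macrophage markers summed to 36.3 to 54.9 units in LPS livers and 40.0 to 56.3 units in control livers, with 3 of 12 risen and 3 fallen. Stellate cell markers summed to 8.72 to 10.6 units in LPS livers and 11.3 to 13.8 units in control livers (3 of 9 risen, 2 fallen), with Col3a1 at a mean of 3.13 units in LPS livers and 6.3 units in control livers, and the list's median difference was 0.31. Endothelial markers summed to 31.5 to 41.3 units in LPS livers and 44.4 to 50.7 units in control livers (4 of 8 risen, 2 fallen), with Kdr at 18.1 units in LPS livers and 30.2 units in control livers, and a median difference of 0.32. Erythroid precursor markers summed to 4.31 to 4.87 units in LPS livers and 8.25 to 22.6 units in control livers. Of these 7, Hbb, Hba-a1 and Alas2 fell, Tfrc rose by 1.32, and Ahsp, Klf1 and Slc4a1 were not called, with Hbb alone at a mean of 1.91 units in LPS livers and 8.73 units in control livers. The part of any of these in the result was not tested.

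Beyond the 40 members, 157 other genes of the cycle were tested of 194 listed, in 11 lists. Of these, 34 rose and 13 fell, with a median difference of 0.11, against 12.2% and 12.4% of all features. Of 10 CDK inhibitors and pocket proteins tested, 1 rose (10%), 3 fell (30%) and 6 were not called. Cdkn1a, which encodes the inhibitor p21, rose by 0.68 ± 0.11 (SE; adjusted p = 0.00388). Cdkn1c, which encodes the inhibitor p57, fell by 1.13 ± 0.14 on the log2 scale (SE; adjusted p = 0.00156). Rb1, the retinoblastoma protein that restrains E2F, fell by 1.07 ± 0.21 (SE; adjusted p = 0.00879), and its relative Rbl2 fell by 0.30 ± 0.08 (SE). Of 7 E2F and related regulators, 1 rose (14.3%), near the share of all features, and 2 fell (28.6%). E2f8 rose by 0.61 ± 0.09, and E2f7 and E2f5 fell by 0.62 ± 0.07 and 0.20 ± 0.06 (SE), all near or under 0.1 units of intensity.

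Of 13 genes of origin recognition and helicase activation, 4 rose (30.8%) and 1 fell (7.69%), with Gmnn, the geminin that inhibits Cdt1, at 1.19 ± 0.10, Cdc45, a helicase cofactor, at 0.73 ± 0.13, and Cdc7, the kinase that fires origins, at 0.62 ± 0.08 (SE). Mcm10, another origin factor, fell by 0.66 ± 0.19 (SE; adjusted p = 0.0417). Of 19 polymerase, clamp loader and single-strand binding genes, 3 rose (15.8%), a share near the 12.2% of all features, with Rpa3 at 0.87 ± 0.16, Rpa2 at 0.56 ± 0.06 and Pold2 at 0.45 ± 0.08 (SE), while the list's median was -0.08. Of 14 other nucleotide synthesis genes, 3 rose (21.4%) and 2 fell (14.3%). Nme1, a nucleoside diphosphate kinase, rose by 1.26 ± 0.11 (SE; adjusted p = 0.000381), and Paics, of purine synthesis, fell by 0.64 ± 0.12 (SE; adjusted p = 0.00727).

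Chromatin assembly gave 3 risen of 10 (30%), with Hmgb2, a chromatin protein of dividing cells, at 1.52 ± 0.14 (SE; adjusted p = 0.000459) and Chaf1b, of the histone chaperone of replication, at 0.66 ± 0.12 (SE). Of 12 genes listed with the kinases, phosphatases and cofactors of G2 and M, 3 rose (25%) and 1 fell (8.33%). That list is not confined to G2 and M, as it also holds Ccne2, a cyclin E, and Cdk7 with Ccnh. Cks2, a Cdk1 cofactor, stood at 0.80 ± 0.15, and Wee1, the kinase that holds Cdk1 inactive, at -0.43 ± 0.12 (SE). Of 28 spindle, kinetochore and cytokinesis genes, 7 rose (25%), with Ttk, a checkpoint kinase, at 0.99 ± 0.25, Ckap2 at 0.79 ± 0.15 and Spc25 at 0.78 ± 0.12 (SE), and of 18 genes of the anaphase-promoting complex, separase, cohesin and condensin 5 rose (27.8%), with Fbxo5 at 0.76 ± 0.15 and Pttg1, securin, at 0.62 ± 0.18 (SE).

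Of 16 mitogens, receptors and antiproliferative genes, 3 rose (18.8%) and 4 fell (25%). Egf and Tgfa, ligands of the EGF receptor, fell by 0.78 ± 0.13 and 0.42 ± 0.12, and Tob1, an antiproliferative gene, fell by 0.59 ± 0.12 (SE). Btg1 and Btg2, relatives of Tob1, rose by 0.95 ± 0.19 and 0.53 ± 0.08, and Tgfb1, which restrains hepatocyte division, rose by 0.56 ± 0.13 (SE). The antiproliferative genes of this list moved in both directions.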

How the data were processed

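Livers of 4 LPS and 4 control rats were measured on 2-colour Agilent arrays, from 100 ng of RNA in 2 rounds of amplification per the labels. The deposited intensity of liver and pool is linear, processed and given with 2 decimals, the smallest values more finely, per the file headers and the values. The submitters' processing notes name Agilent Feature Extraction 8.5.1.1. Its settings for background, dye balance and error are not given in the sources consulted. No array swapped the dyes, so a dye effect on a probe is shared by both groups. The deposited p-value of each probe, from the authors, compares the channels of 1 array. The deposited series matrix holds log10 ratios, which equalled those of the same intensities to within 0.0165 on the log2 scale, and gave no finer resolution. The number of arrays limits the precision, and depth does not apply.

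Probes were named through the RefSeq GRCr8 gene table by accession, then by current symbol, then by older symbol. Probes of a symbol were averaged as log2 ratios, without the 188 probes that had under 3 values in either group. The 21052 features were fitted with limma 3.58.1 in R 4.3.3 (1.54 prior degrees of freedom, median standard error 0.103), with Benjamini-Hochberg adjustment over all features and a threshold of 0.05. The fit was tested on simulated data. Tables and figures used Python 3.11.15, pandas 2.3.3, numpy 2.4.6 and matplotlib 3.10.9.

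Values on every array are given for each called member and for the member with the largest absolute difference in a role, and of each other list up to 3 called rises and 3 called falls were eligible to be named. The members, lists, rules and alternatives were chosen with earlier results of these data known, and the members' counts are not independent support for them. The replicates are separate rats per the labels. The columns carry no replicate number, so only the series matrix allowed the replicate numbers to be used. The Mcm3 and Cdc25b genes were not analysed here. Some results that the naming rule selects are not reported here.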

Additional observations from a re-analysis of the deposited data

Results flagged for a closer look

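Among 79 sets of 4 values with any spread, 12 held a value far from the other 3 by Dixon's criterion, where chance gives about 1 in 20. In 10 of the 12 the other 3 values were equal at the rounded 0.00, so any departure meets the criterion. An LPS array stood out for Aurkb, where array 3 read 2.60 and the others 0.58, 0.58 and 0.74. Control array 1 stood out for Mcm2 at 0.19 and for Ccne1 at -0.22. Control array 2 stood out for Tyms at 0.13, Ccna2 at -1, Cdc20 at -0.26 and Bub1b at 1.00. Control array 3 stood out for Bub1 at 0.32. Control array 4 stood out for Mcm4 at 0.42, Rrm1 at 1.00, Ccnb1 at 0.32 and Top2a at 0.42.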

How the results depend on the processing

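Fen1 kept its call under all alternatives, and Tyms and Cdk4 under all but the test against a 1.5-fold change. Of the 19 called members, 13 kept their call without any single array, all of them genes that rose. The same share over all features was not counted. Quantile normalization left 6 members called, 6 risen and 0 fallen in limma (1 lower at an unadjusted p under 0.05), among 1518 features called, with medians of 0.25 over all members and 0.35 for M phase. The array-set term left 7 called, 5 risen, among 1906 features, with a G1 median of 0.23; the LPS arrays share a set with control array 1 alone. The test against a 1.5-fold change left 3 called, 3 risen and 0 fallen (0 at an unadjusted p), among 391 features. Median centring over probes with unequal channels gave 1 fallen, against 7.12% of features, and a median of 0.49, and a pseudocount of 0.05 units a median of 0.25. A mean pool intensity of at least 0.1 units gave a G1 median of -0.16 and turned Ube2c to -0.06, since its other probe was removed. The liver channel alone turned Rrm1 to 0.45 (adjusted p = 0.0476); the cause was not tested. Leaving out each array in turn gave 15 to 19 members called, 15 to 19 risen and 0 to 2 fallen (2 or 3 lower at an unadjusted p), 4004 to 4834 features called, and medians of 0.33 to 0.43 over all members, -0.02 to 0.29 for G1, 0.22 to 0.32 for S phase and 0.47 to 0.61 for M phase. Without control array 3 and LPS array 1 together, 13 rose and 0 fell (2 at an unadjusted p), against 10.2% and 9.99% of features. The replicate numbers did not pair the samples, with correlations of same-numbered deviations of -0.0124, -0.0119, 0.0285 and 0.172, and 2 of 4 samples correlated best with their own number. The fit with the replicate numbers as a block, on the series matrix, gave 18 risen, 1 fallen and 3786 features called. Over all results and alternatives, 991 values kept direction and side of the threshold or moved little, 77 lost the call in the same direction, 26 gained it, 28 counts or medians moved and 2 reversed. Signal near the 2-decimal rounding limits the 14 dim members.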
